A study of Citrus maxima and Citrus sinensis with 12 samples.

Results

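The miRNA levels of C. grandis (pummelo) root tips were compared with those of C. sinensis (sweet orange) root tips at the control boron supply, across every miRNA in the count table. The comparison used the 6 libraries, of 12 in all, whose plants received 10 µM H3BO3, the boric acid that supplied boron, as 3 libraries of C. grandis and 3 of C. sinensis. In both species seedlings aged 11 weeks were moved to sand in a greenhouse and then irrigated with nutrient solution at this level for 15 weeks. The other 6 libraries, 3 per species, came from plants at 400 µM H3BO3, a toxic level, and are given only beside the values at 10 µM. No allele, transgene or other agent was named in the labels. Each library was made from root RNA mixed over 5 replicates, and nothing says that the 3 libraries of a group came from separate plants. Every SD and p-value therefore measures the spread between libraries, which may be technical. The tissue was labelled root tips, which miRNA counts cannot check because they hold no mRNA markers. The table had 172 entries, 1 per locus, which hold 126 distinct mature sequences of 19 to 25 nt, and each sequence was counted once.

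Plant miRNAs are cut by Dicer-like enzymes from the hairpin of a longer transcript and are loaded into Argonaute proteins, which they guide to complementary mRNAs for cleavage or translational block. Most conserved families act on transcription factors, and the seed, the bases near the 5′ end, weighs heavily in target recognition. Plant small RNAs of 24 nt more often belong to the siRNAs that direct DNA methylation, and hairpin products of that length are more common among lineage-specific miRNAs than among conserved ones. Sweet orange is a cultivated hybrid with pummelo in its ancestry.

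The largest differences lay in few sequences, several of them close copies of one another, and these are shown first. The seed (bases 2 to 8) is in capitals. The first pair came from neighbouring loci and shared its seed, and the second came from overlapping loci and also shared its seed.
miR3951 (scaffold_1_1505, 21 nt): uUUCUCUUaucguuaucugug
scaffold_1_1509 (22 nt, homologue bra-miR9563a-3p): uUUCUCUUaucuuuuaucugug
ci-miRN17 (scaffold_3_17886, 24 nt): gUACUGUAgcugugagggggacgu
ptc-miR473a-5p (scaffold_3_13487, 24 nt): gUACUGUAgccgugagggggacgc
The next 4 sequences also had called differences past 3 on the log2 scale, and no counterpart within 2 edits among the 126.
scaffold_7_35524 (24 nt): aAUGAGUUuuaaacuguagacugu
scaffold_3_10325 (24 nt): aACGUGUGuuucugauuuuguuaa
scaffold_8_42593 (21 nt): cUGAUAGUuuucugaucuuuc
mir7496 (scaffold_9_45448, 24 nt): uUAGUGAAuucugucgauuuggac
The last 3 are miR396 forms that differ by 1 or 2 edits and of which 1 was called. miR396g-5p and ptc-miR396f share a seed that ccl-miR396 does not have.
miR396g-5p (scaffold_4_21173): uUCCACGGcuuucuugaacuu
ptc-miR396f (scaffold_7_36709): uUCCACGGcuuucuugaacgu
ccl-miR396: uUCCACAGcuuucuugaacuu

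With each sequence counted once, the C. grandis libraries held 387094, 450286 and 443718 counts and the C. sinensis libraries 282149, 468442 and 321315. A sequence with 3 counts stood at 5.29 to 6.71 CPM (counts scaled to the effective library size) in C. grandis and at 6.97 to 10.9 CPM in C. sinensis. Across sequences, which are not independent, log2 CPM of 2 libraries of one group correlated with a Pearson r of 0.9531 to 0.9755 in C. grandis and 0.9827 to 0.9872 in C. sinensis, and every pair differed by more than counting error. Beyond counting error, the libraries varied with a coefficient of 36.54% in C. grandis and 19.63% in C. sinensis (edgeR's biological coefficient of variation). C. grandis replicate 3 stood apart in several sequences, miR3951, ci-miRN17 and miR398 among them, and the values of these 3 without it are given beside each.

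Of the 126 sequences 124 had enough counts to be tested, and 2, miR9560 and the miR171 of ccl-miR171, were left out. A sequence was called where the adjusted p (edgeR quasi-likelihood test, Benjamini-Hochberg over all 124) was under 0.05. By this rule 35 sequences (28.2%) differed, 20 (16.1%) higher and 15 (12.1%) lower in C. grandis, and 50 had an unadjusted p under 0.05. The higher ones had a median log2 difference, C. grandis minus C. sinensis, of +1.44, and 3 of the 20 passed a size of 3 on that scale. The lower ones had a median of −1.82, and 6 of the 15 passed that size. Among all 124 the median was +0.07 and 66 lay within 0.5 of 0. In 57 sequences (46%) the 3 libraries of one species lay entirely on one side of the 3 of the other, 34 (27.4%) with C. grandis higher and 23 (18.5%) with C. grandis lower, and 33 of the 35 called were among them.

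The balance of directions depended on the scaling. Of the calls 57.1% were higher in C. grandis with trimmed-mean scaling, against 45.9% (17 of 37) with median-of-ratios scaling and 77.3% (34 of 44) with total counts. These scalings moved the median of all sequences by −0.13 and +0.28, so differences under about that size carry no firm direction. Total counts include miR3951 and scaffold_1_1509, which together took 22.4%, 23.9% and 16.7% of the C. sinensis libraries. In C. grandis the pair took 8.1%, 7.01% and 3.83%. Calls higher with total counts carry this unequal share, and how much of the +0.28 it makes up was not tested. DESeq2 called 41, 20 higher and 21 lower, and included all 35. A fit on the 6 libraries at 10 µM alone called 30, of which 28 were among the 35, and lost miR-RN03, osa-miR5498, miR172a-5p, ath-miR390a-5p, gma-miR319g, the ath-miR319a form of scaffold 3 and bdi-miR7725a-5p. Leaving out 1 library gave 18 to 35 calls, with 18 without C. grandis replicate 2, 18 without C. sinensis replicate 1, 21 without C. grandis replicate 1 and 22 without C. sinensis replicate 2.

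**Figure D1:**
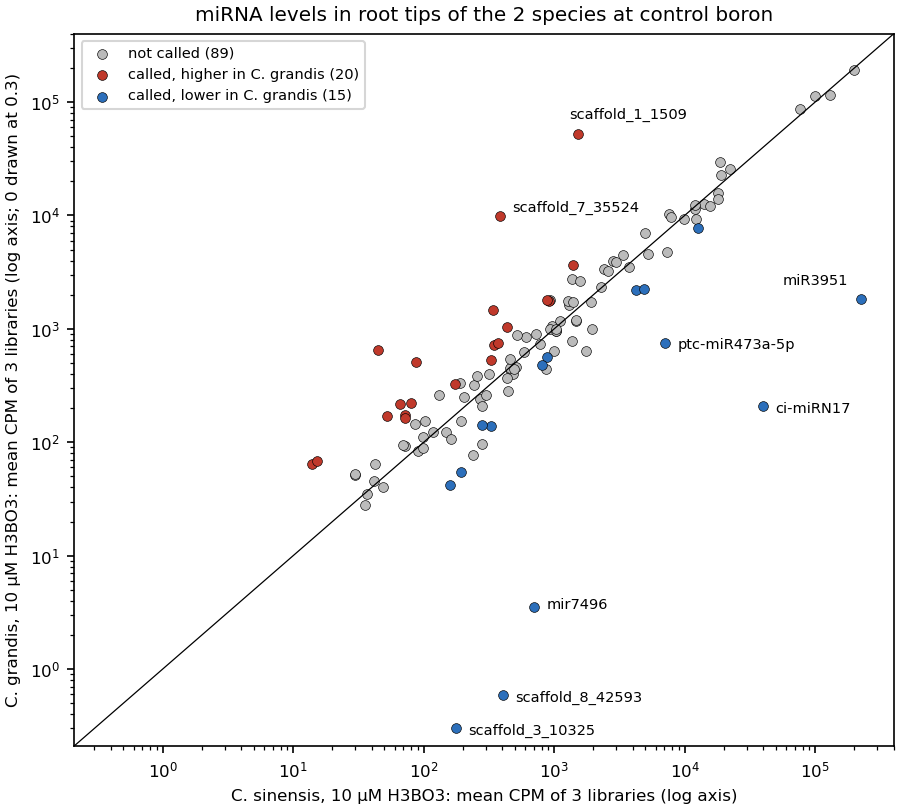
Mean CPM of each tested sequence in C. grandis (vertical, log axis) against C. sinensis (horizontal, log axis) at 10 µM H3BO3, with the 20 called higher in red, the 15 called lower in blue and the 89 not called in grey, and the diagonal for equal levels. Most points lie near the diagonal, with miR3951, ci-miRN17 and 3 sequences almost without counts in C. grandis far below it and scaffold_1_1509 and scaffold_7_35524 far above it.

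miR3951, a miRNA family described in citrus, was lower in C. grandis. It had 318, 334 and 1935 counts in the C. grandis libraries, against 62819, 111382 and 53200 in the C. sinensis libraries. Scaled, these were 711, 589 and 4175 CPM in C. grandis and 228470.0, 258839 and 181769 CPM in C. sinensis. The C. sinensis libraries were all far above the C. grandis ones, where replicate 3 was several times the others. This amounts to a log2 difference of −6.93 (SE 0.80, adjusted p = 3.16e-05), with a 95% interval of −8.68 to −5.19, and it was −8.46 without C. grandis replicate 3. The 1 target that the deposited target table gives for miR3951, listed for C. grandis, is annotated with leucine-rich repeats, a motif common in receptor kinases and resistance proteins.

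Its close copy scaffold_1_1509 ran the other way. It is named after bra-miR9563a-3p, a miRNA of Brassica rapa, and had 31020, 31231 and 15074 counts in C. grandis, against 492, 620 and 391 in C. sinensis. This was 69371, 55046 and 32524 CPM in C. grandis and 1789, 1441 and 1336 CPM in C. sinensis, with no overlap, and the log2 difference was +5.10 (SE 0.44, adjusted p = 1.84e-06). Together the pair took 8.1%, 7.01% and 3.83% of the counts of the C. grandis libraries, against 22.4%, 23.9% and 16.7% in C. sinensis, so the summed share was lower in every C. grandis library.

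The windows of both loci lay on the plus strand of scaffold 1, at 20960909 to 20961158 for miR3951 and 20985765 to 20986014 for scaffold_1_1509, with 24606 nt between them. Which genome build these positions refer to is not stated by the labels or the files, and no gene annotation of them was used. The mature sequences share their first 11 and their last 9 nt, and the 2 edits lie between these stretches. Within a library, where no scaling enters, there were 97.5, 93.5 and 7.79 counts of scaffold_1_1509 per count of miR3951 in C. grandis. In C. sinensis there were instead 128, 180 and 136 counts of miR3951 per count of scaffold_1_1509. Each species thus held mainly 1 member of the pair, in all 3 libraries. The mismatches allowed when reads were assigned are likewise unstated.

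The copies at the second site were both lower in C. grandis. ci-miRN17, a 24-nt sequence without a named homologue, had 64, 45 and 185 counts in C. grandis, against 11005, 18089 and 10846 in C. sinensis. This was 143, 79.3 and 399 CPM in C. grandis and 40025, 42037 and 37058 CPM in C. sinensis, a range that was narrow in C. sinensis and wide in C. grandis. On the log2 scale the difference was −7.59 (SE 0.59, adjusted p = 8.57e-07), and −8.53 without C. grandis replicate 3. It made up 0.145%, 0.0967% and 0.585% of the 24-nt counts in C. grandis, against 32.9%, 32.9% and 28.5% in C. sinensis.

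ptc-miR473a-5p, named after a poplar miRNA, stood at 659.7, 1073 and 537 CPM in C. grandis and 6627, 7441 and 7035 CPM in C. sinensis, without overlap. Its log2 difference was −3.21 (SE 0.58, adjusted p = 0.00142). The windows overlap by 106 nt on opposite strands of scaffold 3, at 50071563 to 50071812 on the minus strand for ci-miRN17 and 50071419 to 50071668 on the plus strand for ptc-miR473a-5p. The reverse complement of the star sequence that the deposited table gives for ptc-miR473a-5p matches 22 of the 24 nt of ci-miRN17 without a break. In C. grandis there were 4.61, 13.5 and 1.35 counts of ptc-miR473a-5p per count of ci-miRN17, against 0.166, 0.177 and 0.19 in C. sinensis, and the ratio was higher in every C. grandis library.

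**Figure D2:**
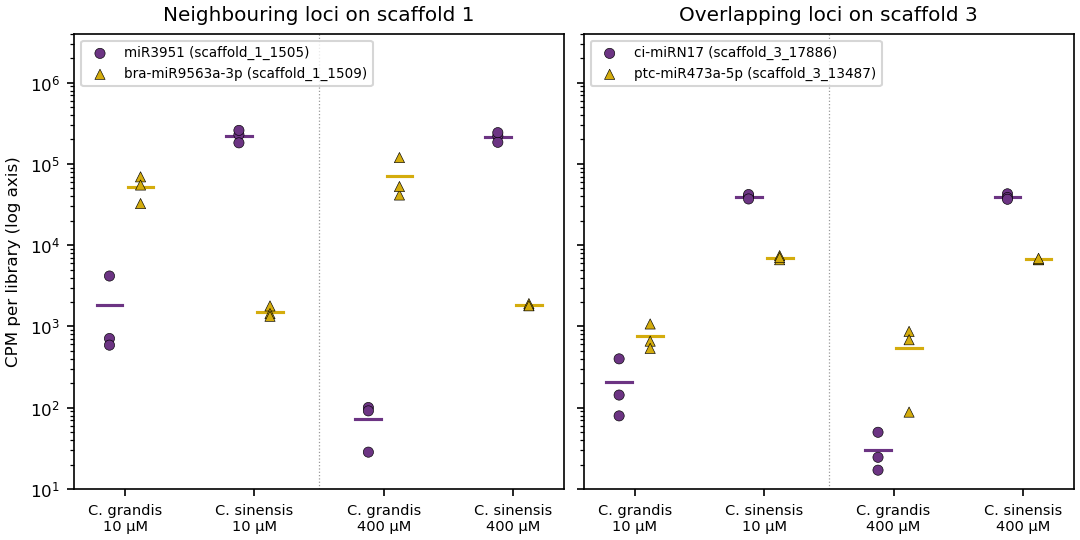
CPM per library (points, log axis) with group means (bars, n = 3) for the neighbouring pair on scaffold 1 (left) and the overlapping pair on scaffold 3 (right), in C. grandis and C. sinensis at 10 µM and then at 400 µM H3BO3. On scaffold 1 the order of the members is opposite in the species at both boron levels, and on scaffold 3 both members are lower in C. grandis.

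Among all 126 sequences 31 pairs lay within 2 edits of each other, and in 30 of them both were tested. In 27 of these 30 the log2 differences of the members were less than 1 apart, with a median gap of 0.379. Among all 124 tested sequences 92 had a log2 difference under 1 in size, and gaps between unlike sequences were not measured. The pairs hold 35 sequences, some of them in several pairs. Of the 34 of these tested, 4 were called higher and 4 lower (23.5%, against 28.2% of all tested). The members were called in opposite directions in 1 pair, miR3951 with scaffold_1_1509, in the same direction in 2 pairs, with 1 call in 6 pairs and with none in 21. The other pair with the same call was scaffold_2_8655 and scaffold_5_25676, 24-nt sequences without a homologue, which stood at 1675, 2179 and 1394 CPM and 1794, 2274 and 1359 CPM in C. grandis, against 629, 1141 and 970.3 CPM and 582, 1111 and 960.1 CPM in C. sinensis. Their log2 differences were +0.94 (SE 0.27, adjusted p = 0.027) and +1.03 (SE 0.31, adjusted p = 0.0304). Both calls were lost without C. grandis replicate 1 (+0.93 and +1.00), without C. grandis replicate 2 (+0.66 and +0.75) and without C. sinensis replicate 1 (+0.70 and +0.78) or 3 (+0.91 and +1.02).

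Another 3 sequences were present in C. sinensis and nearly without counts in C. grandis. scaffold_3_10325, without a homologue, had 0, 0 and 0 counts in C. grandis, against 41, 77 and 59 in C. sinensis, or 0 CPM in C. grandis against 149, 179 and 202 CPM in C. sinensis. Set against 3 counts over the C. grandis group, the counted level of this exact sequence in C. grandis was at least 87.4-fold lower (counting error only). The adjusted p was 3.09e-06. scaffold_8_42593, also without a homologue and listed at 2 loci, had 0, 1 and 0 counts in C. grandis, against 110, 172 and 120 in C. sinensis. The C. sinensis level was 595 times the C. grandis level (95% exact interval of the count ratio 106 to 23600, counting error only), with adjusted p = 3.62e-08. mir7496 had 2, 1 and 2 counts in C. grandis, against 185, 279 and 228 in C. sinensis, a ratio of 205 (87.4 to 633), with adjusted p = 3.62e-08. In all 3 the C. sinensis libraries were close to one another, at 400.1, 399.7 and 410.0 CPM for scaffold_8_42593 and 673, 648 and 779 CPM for mir7496, and each C. grandis library was at or below 4.47 CPM for these sequences. Of the 126 sequences, no more than 3 in any library at 10 µM had 0 counts. The mismatches allowed and the species whose genome gave the listed sequences are not stated, so these values hold for the sequences as listed. Whether C. grandis held altered forms of them that were not counted was not tested.

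The largest difference upwards after scaffold_1_1509 was in scaffold_7_35524, a 24-nt sequence without a homologue. It stood at 16931, 5037 and 7759 CPM in C. grandis and 244, 397 and 513 CPM in C. sinensis. All C. grandis libraries lay above all C. sinensis ones by a wide margin, with replicate 1 the highest of its group. Its difference on the log2 scale was +4.68 (SE 0.78, adjusted p = 0.000845), and +4.0 without C. grandis replicate 1. bdi-miR7764-5p, a 24-nt sequence named after a Brachypodium miRNA, stood at 749, 460.0 and 313 CPM in C. grandis and 109, 67.4 and 85.4 CPM in C. sinensis, without overlap, a difference of +2.55 (SE 0.40, adjusted p = 0.000489) on the log2 scale. miR-RN02, a 21-nt sequence, stood at 1209.8, 1852 and 1372 CPM in C. grandis and 269, 414 and 335 CPM in C. sinensis, also without overlap, a difference of +2.12 (SE 0.43, adjusted p = 0.00262) on the log2 scale.

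Smaller differences upwards outside the family groups described below included miR8695, with 32, 39 and 25 counts in C. grandis and 3, 9 and 3 in C. sinensis, a difference of +2.12 (SE 0.58, adjusted p = 0.0201) on the log2 scale. This call rests on few counts and was lost without C. grandis replicate 1 (+2.00) or 2 (+1.99) and without C. sinensis replicate 1 (+1.95) or 3 (+1.87). miR-RN03 had 61, 25 and 11 counts in C. grandis and 5, 9 and 2 in C. sinensis, a difference of +2.08 (SE 0.72, adjusted p = 0.0489) on the log2 scale. Its call held in 6 of 19 alternatives, the fewest of the 35 calls, and the log2 difference was +1.06 without C. grandis replicate 1. mtr-miR5224b, a 24-nt sequence named after a Medicago miRNA, was tighter, at 1165, 992 and 934 CPM in C. grandis and 458, 402 and 451 CPM in C. sinensis, a difference of +1.24 (SE 0.17, adjusted p = 0.000173) on the log2 scale.

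Downwards, 4 sequences of moderate size stood next to the very large ones. gra-miR8713, 24 nt and named after a cotton miRNA, was at 35.8, 59.9 and 30.2 CPM in C. grandis and 164, 153 and 157 CPM in C. sinensis, a difference of −1.89 (SE 0.37, adjusted p = 0.00229) on the log2 scale. mtr-miR2595, named after a Medicago miRNA, was at 71.6, 40.5 and 51.8 CPM in C. grandis and 251, 188 and 140.1 CPM in C. sinensis, a difference of −1.82 (SE 0.48, adjusted p = 0.0168) on the log2 scale, and its call was lost without C. grandis replicate 2 (−1.74) or C. sinensis replicate 1 (−1.63). osa-miR5077, 24 nt and named after a rice miRNA, was the most abundant of the 4, at 2239, 2614 and 1942 CPM in C. grandis and 4954, 4232 and 5480.4 CPM in C. sinensis, a difference of −1.11 (SE 0.19, adjusted p = 0.000865) on the log2 scale. In all of these the species did not overlap. scaffold_2_6137, 21 nt and without a homologue, was at 127, 143 and 145 CPM in C. grandis and 233, 423 and 328 CPM in C. sinensis, also without overlap, a difference of −1.25 (SE 0.37, adjusted p = 0.0304) on the log2 scale. Its call was lost when any library except C. sinensis replicate 1 was left out (−1.06 to −1.36) and with total-count scaling (−0.94). The other called sequences were miR780, osa-miR5498, cca-miR6109 and ath-miR5014a-3p, at +1.06, +1.19, +0.91 and +0.69, and miR-RN01 and bdi-miR7725a-5p, at −0.98 and −0.64. Of these 6, miR-RN01 kept its call whichever library was left out, and the other 5 each lost it without at least 4 of the 6 libraries in turn.

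**Figure D3:**
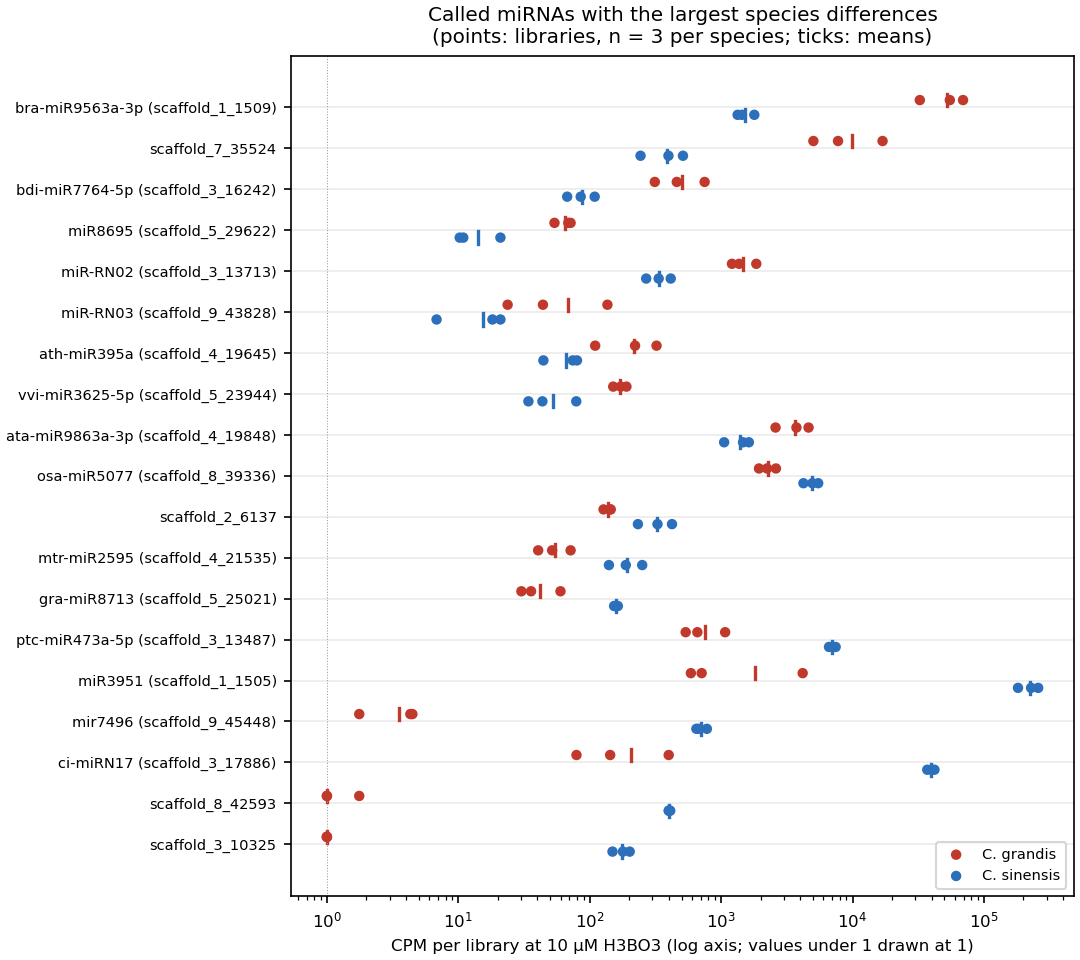
CPM per library at 10 µM H3BO3 (points, log axis) and species means (ticks, n = 3) for 19 of the called sequences with the largest log2 differences whose libraries did not overlap (9 higher and 10 lower in C. grandis), with C. grandis in red above C. sinensis in blue. C. grandis libraries scatter more than C. sinensis ones in most of these, and scaffold_3_10325, with no counts in C. grandis, is drawn at 1 CPM there, as are all values under 1.

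The conserved and best-known families, grouped by what they act on, held 11 of the 35 calls (7 higher, 4 lower) among 59 tested sequences (18.6%). With total-count scaling, which called 44 of all 124 sequences (34 higher, 10 lower), 17 of these 59 were called (16 higher, 1 lower, 28.8%). Whether these shares differ from those of the other sequences was not tested. The groups were set by family number, and each group's counts are given beside the 28.2% called and the median of +0.07 over all tested sequences. Group counts with total-count scaling stand instead beside the 44 of 124 called with that scaling. The most abundant sequences, in and outside these groups, were mostly not called. scaffold_1_3278, a 20-nt sequence without a homologue and the most counted of all, averaged 190565 ± 52212 CPM in C. grandis and 200032 ± 92794 CPM in C. sinensis (SD, n = 3 each), a log2 difference of −0.07 with a 95% interval of −0.86 to +0.72. ath-miR159a, a regulator of MYB factors, averaged 115128 ± 23943 CPM in C. grandis and 130662 ± 24405 CPM in C. sinensis (SD, n = 3 each), a log2 difference of −0.18 with an interval of −0.64 to +0.28. For both the sign turned with total-count scaling (+0.22 and +0.10).

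The miR165 and miR166 families limit class III HD-ZIP factors, which pattern the vascular tissue and the root. Of the 4 tested 0 were called by edgeR, DESeq2 or voom and 0 had an unadjusted p under 0.05. The 3 of 21 nt had overlapping species, and the other, the 24-nt ath-miR166a-5p named after the opposite arm, did not overlap (background 46%), at +0.42. The more abundant ath-miR165a-3p stood at 103175, 106280.0 and 126994 CPM in C. grandis and 95154, 108258 and 94701 CPM in C. sinensis, a log2 difference of +0.17 (interval −0.25 to +0.60), and its single-edit form at +0.19 (interval −0.32 to +0.70). The median of the group was +0.18 and was +0.05 with median-of-ratios scaling.

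In the group of developmental timing, miR156 and miR157 hold back SBP factors and so keep shoots juvenile, and miR172 acts on AP2-like factors. All 4 tested members lay above 0, also with median-of-ratios scaling, total counts and DESeq2, with a median of +0.88, and 1 was called. This was miR172a-5p, the arm opposite the one known to act on AP2-like mRNAs, at 219, 319 and 123 CPM in C. grandis and 43.6, 58.1 and 137 CPM in C. sinensis. C. grandis replicate 3 lay below C. sinensis replicate 3, so the species overlapped. The log2 difference was +1.48 (SE 0.51, adjusted p = 0.0489). The call held in 8 of 19 alternatives and was lost with the 6 libraries alone and without C. grandis replicate 1 (+1.47) or 2 (+1.05) and without C. sinensis replicate 1 (+1.20) or 2 (+1.27), among others. miR156k averaged 261 ± 37.4 CPM in C. grandis and 131 ± 56.4 CPM in C. sinensis (SD, n = 3 each), a difference of +1.01 (SE 0.48, adjusted p = 0.138) on the log2 scale, without overlap. miR157 averaged 2641 ± 922 CPM in C. grandis and 1579 ± 419 CPM in C. sinensis (SD, n = 3 each), with overlap, a difference of +0.74 (SE 0.32, adjusted p = 0.103) on the log2 scale. With total-count scaling 3 of the 4 were called, miR156k (+1.33, adjusted p = 0.0392) and miR157 (+1.06, adjusted p = 0.0157) with miR172a-5p, and miR157 was also called without C. grandis replicate 1 (+0.96, adjusted p = 0.0279).

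Of the auxin pathway, where miR160 and miR167 act on auxin response factors and miR390 starts the trans-acting siRNAs that limit others of them, 1 of 7 tested was called, and it was lower. ath-miR390a-5p stood at 474, 354 and 598 CPM in C. grandis and 986, 883 and 567 CPM in C. sinensis. C. grandis replicate 3 lay above C. sinensis replicate 3, so the species overlapped. This was a log2 value of −0.77 (SE 0.25, adjusted p = 0.0373). The call was lost with total-count scaling (−0.50), with the 6 libraries alone (−0.77, adjusted p = 0.0788), without C. grandis replicate 1 (−0.85) or 2 (−0.70) and without C. sinensis replicate 1 (−0.66) or 2 (−0.79). The 3 ath-miR160a-5p forms lay between +0.29 and +0.39 and the 3 miR167 forms between +0.12 and +0.30, none called. With total-count scaling the group had 2 calls, both higher, the ath-miR160a-5p form of scaffold_2_8873 (+0.69, adjusted p = 0.023) and miR167b-3p (+0.61, adjusted p = 0.0429). Despite its deposited name, miR167b-3p has ath-miR167a-5p as its listed homologue and shares its seed with the other miR167 forms.

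The miR164 family acts on NAC factors, and miR171 on GRAS factors of the HAM type. Of 4 tested members 2 were called, both higher, and all 4 had non-overlapping species (background 46%). ath-miR164a, the form known to act on NAC mRNAs, averaged 841 ± 77.5 CPM in C. grandis and 606 ± 43 CPM in C. sinensis (SD, n = 3 each), a difference of +0.47 (SE 0.20, adjusted p = 0.103) on the log2 scale. ath-miR171b-3p stood at 186, 189 and 151 CPM in C. grandis and 58.2, 55.8 and 103 CPM in C. sinensis, a difference of +1.29 (SE 0.36, adjusted p = 0.023) on the log2 scale. Its call was lost without C. grandis replicate 1 (+1.20) or 2 (+1.15) and without C. sinensis replicate 1 (+1.14) or 2 (+1.08). With total-count scaling 3 of the 4 were called, ath-miR164a among them (+0.78, adjusted p = 0.00974). The sequence that the files name miR9563 (scaffold_1_1919) has the same seed as ath-miR171b-3p and is in no group. It lay at +0.08, was not called, and its species overlapped.

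Among the regulators of growth, miR159 acts on MYB, miR319 on TCP, miR396 on growth-regulating factors (GRF) and miR394 on an F-box mRNA. Of 15 tested members 1 was called higher and 2 lower, with a median of −0.16. With total-count scaling the median was +0.16, and 2 were called, both higher, miR396g-5p and the 20-nt ath-miR159a form of scaffold_3_17782 (+0.58, adjusted p = 0.042). miR396g-5p, for which the deposited target table lists growth-regulating factor 3, a cation-transporting ATPase and an alpha/beta hydrolase in C. grandis, stood at 622, 846 and 792 CPM in C. grandis and 236, 437 and 448 CPM in C. sinensis. All C. grandis libraries were above all C. sinensis ones, and the log2 difference was +1.01 (SE 0.28, adjusted p = 0.0201). The call was lost without C. grandis replicate 2 (+0.83) or C. sinensis replicate 1 (+0.74). Its single-edit forms ptc-miR396f and ccl-miR396, shown above, were not called, at +0.24 (interval −0.27 to +0.75) and +0.27 (interval −0.29 to +0.82), and ccl-miR396 was far more abundant, at 22670.3 CPM in C. grandis and 18854 CPM in C. sinensis. Whether the forms differed from one another in their species difference was not tested.

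The called miR319 sequences were gma-miR319g and the ath-miR319a form of scaffold 3. gma-miR319g stood at 7156, 5584 and 10402 CPM in C. grandis and 13275, 13348 and 11651 CPM in C. sinensis, without overlap, a difference of −0.73 (SE 0.22, adjusted p = 0.0319) on the log2 scale. The ath-miR319a form stood at 1577, 1329 and 3657 CPM in C. grandis and 4757, 4285 and 3659 CPM in C. sinensis, a difference of −0.95 (SE 0.31, adjusted p = 0.0382) on the log2 scale. In both, C. grandis replicate 3 was the highest of its group and nearest to C. sinensis, and without it the ath-miR319a value was −1.58. With total-count scaling they were −0.45 and −0.70 and not called. Both calls were also lost with the 6 libraries alone (−0.73 and −0.95, adjusted p = 0.074 and 0.105), without C. grandis replicate 1 (−0.75 and −0.85) or 2 (−0.64 and −0.80) and without C. sinensis replicate 1 (−0.74 and −0.91) or 2 (−0.76 and −1.03). Of the 6 miR319 sequences 5 lay below 0, and 3 did with total-count scaling. miR319-5p, from the other arm, lay at +1.02 (SE 0.64, adjusted p = 0.259).

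Of the nutrient supply families 1 of 5 tested was called. ath-miR395a, which acts on ATP sulfurylase and a sulfate transporter and for which the deposited target table lists a thiolase in C. grandis, stood at 221, 323 and 110.0 CPM in C. grandis and 80.0, 74.4 and 44.4 CPM in C. sinensis. The species did not overlap, and the log2 difference was +1.71 (SE 0.56, adjusted p = 0.038). The call was lost without C. grandis replicate 1 (+1.67) or 2 (+1.22) and without each C. sinensis library in turn (+1.43 to +1.83). ath-miR827 and miR2111a, tied to phosphate supply, lay at −0.25 and +0.01, none called. The sequences named osa-miR169i-5p.2 and zma-miR169m-3p lay at −0.64 and −0.32, also not called. Both stand in this group by name only. The second is named after the arm opposite the one that acts on NF-YA factors, and whether the first acts on these was not tested.

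Copper-responsive families had 2 tested members, of which 0 were called by edgeR or voom, 1 by DESeq2, and 1 had an unadjusted p under 0.05. miR398, which acts on mRNAs of copper superoxide dismutase and for which the deposited target table lists a plastocyanin-like protein in both species, stood at 279.5, 291 and 1339.9 CPM in C. grandis and 1528, 2105 and 1619.5 CPM in C. sinensis. All C. grandis libraries were below all C. sinensis ones, and replicate 3 was nearest to them. The log2 difference was −1.46 (SE 0.65, adjusted p = 0.112), and without C. grandis replicate 3 it was −2.65 and called (adjusted p = 0.00588). DESeq2 also called it (−1.61, adjusted p = 0.0321), as did the fit with the replicate number as a block (−1.83, adjusted p = 0.0214). miR397-3p, the arm opposite the one that acts on laccases, stood at 69.3, 123 and 432 CPM in C. grandis and 204, 360.2 and 277 CPM in C. sinensis, a difference of −0.44 (SE 0.67, adjusted p = 0.662) on the log2 scale.

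The small RNA machinery is itself a miRNA target, with miR162 acting on Dicer-like 1, miR168 on Argonaute 1 and miR403 on Argonaute 2. Of its 6 tested sequences, 2 of them of 24 nt, 0 were called by edgeR, DESeq2 or voom and 2 had an unadjusted p under 0.05. With total-count scaling 3 were called, all higher. The log2 differences ran from +0.13 to +0.50 with a median of +0.34, of which 5 stayed above 0 with median-of-ratios scaling. ath-miR162a-3p stood at 6769, 7731 and 6518 CPM in C. grandis and 4349.8, 4857 and 5679 CPM in C. sinensis. The species did not overlap, and the log2 difference was +0.50 (SE 0.20, adjusted p = 0.0875), which passed with total-count scaling (+0.81, adjusted p = 0.00863), as did ath-miR403-3p of scaffold_3_17634 (+0.67, adjusted p = 0.00913) and the 24-nt ath-miR168b-3p (+0.81, adjusted p = 0.0249). ath-miR162a-3p also passed with every entry as its own feature (+0.52, adjusted p = 0.049). The 2 sequences of 24 nt, ath-miR168b-3p and the ath-miR403-3p of scaffold_5_25549, stand in this group by name only. The latter does not have the seed of the 21-nt ath-miR403-3p forms. Whether these 24-nt sequences act on Argonaute mRNAs was not tested.

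The families that start phased siRNAs from resistance-gene and other mRNAs had 1 call among 5 tested. This was the 24-nt ata-miR9863a-3p, named after an Aegilops miRNA, at 4629, 3744 and 2596 CPM in C. grandis and 1055, 1627 and 1469 CPM in C. sinensis, without overlap and with a log2 difference of +1.40 (SE 0.26, adjusted p = 0.00147). It kept its call whichever library was left out. The 2 members of 24 nt, ata-miR9863a-3p and gma-miR482a-5p, stand in this group by name only. Whether they start phased siRNAs was not tested. Of the 3 members of 19 to 23 nt 0 were called. The abundant 22-nt csi-miR472 and miR472, the length typical of such triggers, lay at −0.06 and −0.08, with 11507 and 9299.6 CPM in C. grandis and 12031 and 9809.7 CPM in C. sinensis.

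Of the families known from citrus and other woody plants 2 of 8 tested were called, miR3951 as above and vvi-miR3625-5p, named after a grapevine miRNA, in the other direction. vvi-miR3625-5p stood at 172, 190.4 and 151 CPM in C. grandis and 43.6, 79 and 34.2 CPM in C. sinensis. The species did not overlap, the log2 difference was +1.67 (SE 0.33, adjusted p = 0.00229), and the call held whichever library was left out. miR3954, which has been studied in citrus as a start of phased siRNAs, lay at +0.31 (SE 0.26, adjusted p = 0.398). miR3627.1 lay at −0.97 (SE 0.39, adjusted p = 0.0875) and passed in 9 of 19 alternatives.

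**Figure D4:**
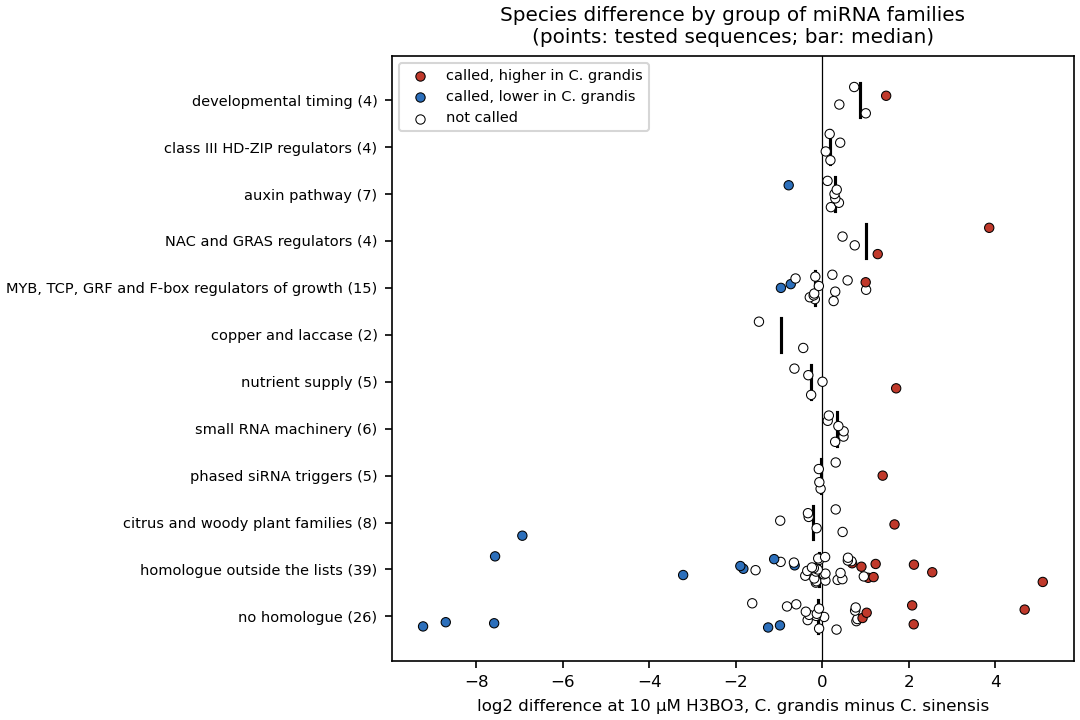
log2 difference at 10 µM H3BO3, C. grandis minus C. sinensis, of each tested sequence (points), by group of families with the number tested in brackets and the group median as a bar; miR3954 stands in 2 groups. Of the calls higher (red) and lower (blue) in C. grandis, 11 lie in the family groups, and the values past 3 lie among sequences without a homologue, with homologues outside the groups, and in the family groups, with miR3951 among them.

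Sequences without a named homologue had 5 higher and 5 lower calls among 26 tested (38.5%), and those with a homologue 15 higher and 10 lower among 98 (25.5%). By length, 18 of 49 tested 24-nt sequences were called (10 higher, 8 lower), against 11 of 40 of 21 nt, 3 of 19 of 22 nt and 1 of 11 of 20 nt. These are counts without a test of the difference between classes. Sequences listed at 1 locus and those listed at 2 or more were called at 27.8% and 29.6%.

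As shares of all counts, the 22-nt sequences took 22.24%, 23.43% and 14.78% of the C. grandis libraries and 9.943%, 10.12% and 8.809% of the C. sinensis libraries. The species did not overlap, and the two-sided exact permutation test gave p = 0.1, the smallest that 3 against 3 libraries allow (adjusted p = 0.3 over 6 quantities). The difference of the means was 10.52 percentage points, and 5.79 when all 172 entries were counted. scaffold_1_1509 alone made up 36%, 29.6% and 23% of the 22-nt counts in C. grandis, against 1.75%, 1.31% and 1.38% in C. sinensis. The 21-nt sequences took 40.52%, 45.34% and 48.39% in C. grandis and 59.8%, 60.99% and 47.6% in C. sinensis (exact p = 0.2, adjusted p = 0.3), and here miR3951 made up 0.203%, 0.164% and 0.901% of the 21-nt counts in C. grandis, against 37.2%, 39.0% and 34.8% in C. sinensis. The 24-nt share averaged 9.621% ± 2.22 in C. grandis and 11.82% ± 0.0579 in C. sinensis (SD, n = 3 each, exact p = 0.1, adjusted p = 0.3), without overlap. Over all 172 entries the species overlapped (exact p = 0.4), and without C. grandis replicate 3 the difference of −2.195 percentage points was −0.9506. ci-miRN17 alone made up 32.9%, 32.9% and 28.5% of the 24-nt counts in C. sinensis, against 0.145%, 0.0967% and 0.585% in C. grandis. The direction of the 24-nt share without ci-miRN17 was not tested. The 20-nt share (24.34% ± 4.375 in C. grandis and 21.21% ± 7.853 in C. sinensis) and that of scaffold_1_3278 (21.6% ± 4.01 in C. grandis and 18.57% ± 8.157 in C. sinensis) both had exact p = 0.6 (SD, n = 3 each). Sequences with a counterpart within 2 edits took 44.58% ± 2.785 in C. grandis and 54.32% ± 6.253 in C. sinensis (SD, n = 3 each, exact p = 0.2).

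The same species contrast at 400 µM used 6 other libraries in the same fit. There the species did not overlap in 47 sequences (37.9%), 25 (20.2%) with C. grandis higher and 22 (17.7%) with C. grandis lower, and 23 of the 35 called at 10 µM were among them in their direction. By the adjusted p 28 of 124 sequences were called (22.6%), 15 (12.1%) higher and 13 (10.5%) lower in C. grandis. Of the 35 called at 10 µM 21 were called there in the same direction, which is 60% of the 35 and 75% of the 28, and 34 of the 35 had the same sign, with miR780 the exception (+1.06 at 10 µM and −0.25 at 400 µM). Among all 124 the sign was the same in 101. scaffold_1_1509 lay at +5.27 at 400 µM and +5.10 at 10 µM. scaffold_7_35524 lay at +4.63 at 400 µM and +4.68 at 10 µM, and ptc-miR473a-5p at −3.61 at 400 µM and −3.21 at 10 µM. Over the libraries at 400 µM scaffold_3_10325 stood at 0, 2.45 and 0 CPM in C. grandis and 254, 169 and 189 CPM in C. sinensis, and scaffold_8_42593 at 1.89, 0 and 2.77 CPM in C. grandis and 407, 359 and 371 CPM in C. sinensis. Of the calls lower at 10 µM 11 of 15 (73.3%) were called at both levels, and of those higher 10 of 20 (50%).

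The change of the species difference between the levels, tested as the difference of both contrasts, was called in 1 sequence (0.806%), miR3951, with 6 at unadjusted p under 0.05. Its species difference was −6.93 at 10 µM and −11.54 at 400 µM, where C. grandis held 28.4, 101 and 91.4 CPM and C. sinensis 221435, 184494 and 242814 CPM. The C. sinensis levels overlapped between the supplies. The difference of the contrasts was +4.61 (adjusted p = 0.0477). This call was lost when any 1 of the 6 libraries at 400 µM or of the 3 C. sinensis libraries at 10 µM was left out (+4.20 to +4.997). ci-miRN17 lay at −7.59 and −10.37 (adjusted p of the change = 0.118). miR396g-5p lay at +1.01 and +0.04 (adjusted p of the change = 0.7), so its difference is not shown to be particular to the control supply.

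**Figure D5:**
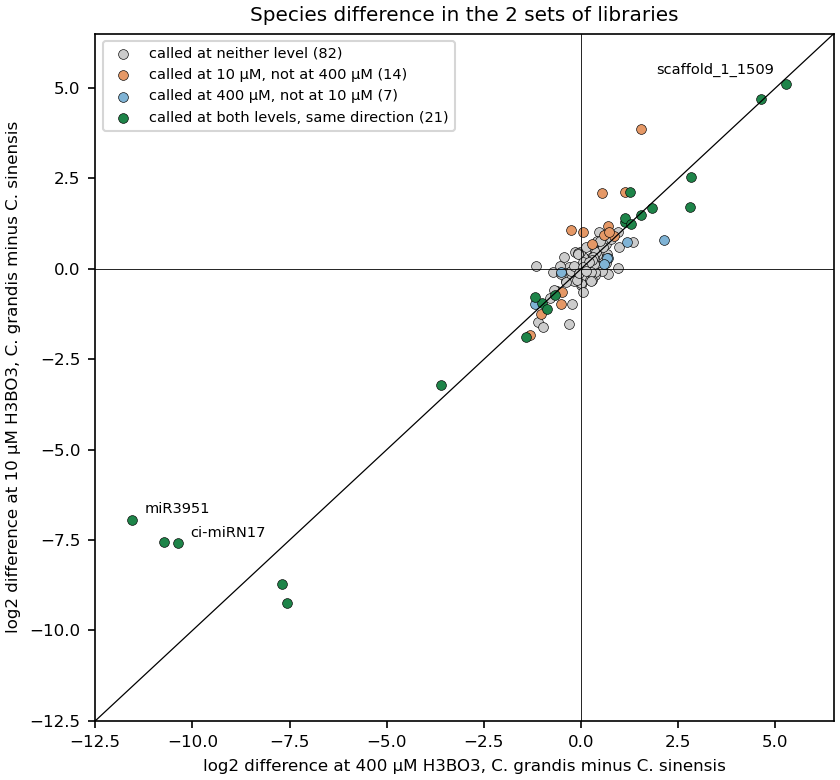
log2 difference, C. grandis minus C. sinensis, at 10 µM (vertical) against 400 µM H3BO3 (horizontal) for the 124 tested sequences, with the diagonal for equal differences. The 21 sequences called at both levels in the same direction (green) hold nearly all of the large differences, and miR3951 lies furthest from the diagonal.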

How the data were processed

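Small RNA libraries (TruSeq kit, single-end, Illumina HiSeq, per the labels) were deposited by the authors as raw counts, whole numbers per miRNA locus without normalisation. The sources used here do not name the trimming, aligner, miRNA caller, mismatches allowed or genome build. The submitters' processing notes name DESeq. A table of identified miRNAs, deposited by the authors, holds a hairpin score, windows of 250 nt and mature sequences. The authors' deposited table of boron-responsive miRNAs (log2 fold changes, p-values) was used for names only, and the target table for annotations.

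Each sequence was counted once, by the entry with the most counts, since 73 entries share a sequence with another. The test was edgeR's quasi-likelihood test (version 4.0.16 in R 4.3.3, two-sided), run on all 12 libraries as 4 groups after trimmed-mean scaling and filterByExpr (count minimum 10). Calls needed an adjusted p (Benjamini-Hochberg) under 0.05. A standard error is the absolute log2 difference over the root of F. Intervals of count ratios and limits from 3 counts cover counting error only. Library shares used exact permutation tests (SciPy 1.17.1). The tests were checked on simulated counts in which a sequence had the same spread in every library. That check does not cover the unequal spread of the species.

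Named sequences were the 10 called with the largest difference per direction without overlap, the 6 most abundant, up to 3 called members (or the most abundant) per family list, those with at most 3 counts in a species, the 10 pairs within 2 edits with the largest gap, and the 3 most variable per species. A single sequence of these is not reported here. Other sequences named were chosen after their values were seen. The comparison and the lists were chosen with earlier results of these data known. Alternatives covered scaling (median-of-ratios, total counts), DESeq2 1.42.0, limma 3.58.1 voom with group weights, 2 filters, 3 ways of joining entries, the libraries in the fit, a replicate block, a log2 change of 1 as threshold, the most counted sequence left out, and each library of a comparison left out.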

Additional observations from a re-analysis of the deposited data

Results flagged for a closer look

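A single sequence had a species difference that itself differed between the boron levels. For miR3951 the log2 difference between C. grandis and C. sinensis at 10 µM H3BO3 minus that at 400 µM was +4.61 (edgeR, adjusted p = 0.0477). It was called in 10 of 24 alternatives, with log2 values of +3.17 to +5.01 and adjusted p of 1.63e-05 to 0.182. The value of +3.17 (adjusted p = 0.00832) came without C. grandis replicate 3 at 10 µM, which held 1935 counts of miR3951 against 318 and 334 in replicates 1 and 2. The call was lost without C. sinensis replicate 1 (+4.64, adjusted p = 0.119), 2 (+4.72, adjusted p = 0.112) or 3 (+4.44, adjusted p = 0.166) at 10 µM. It was also lost when any of the 6 libraries at 400 µM was left out (+4.20 to +4.997, adjusted p = 0.0563 to 0.182).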

How the results depend on the processing

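The count of sequences that differed between the species at 10 µM was 35. Over the alternatives that kept all 12 libraries and counted each sequence once, it ran from 32 to 44, apart from the test against a log2 change of 1. That test called 12 (5 higher, 7 lower in C. grandis). The 6 libraries at 10 µM alone gave 30, and every entry taken as a feature gave 48 calls among 170 entries. Total-count scaling called 34 higher. Leaving out 1 library gave 18 to 35 calls in all, 8 to 18 higher and 10 to 17 lower at 10 µM, and 15 to 31 at 400 µM. At 400 µM every entry taken as a feature gave 49 calls and the test against 1 gave 11. The change of the species difference was called in 1 sequence, in 2 with total-count scaling and with DESeq2, in 0 with voom, with every entry as a feature, with the test against 1 and without the most counted sequence, in 0 to 2 with 1 library at 10 µM left out and in 0 without each library at 400 µM in turn, an alternative chosen after seeing the data. The fits with 0 calls, all by edgeR but voom, had 3 to 15 sequences at an unadjusted p under 0.05. The 22-nt share differed by 10.52 percentage points, and by 5.79 over all entries or with entries added up. Of the 35 calls 11 held in all 19 alternatives and 16 in all but the test against 1.

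With the replicate block the counts were 40 at 10 µM (35 of them shared), 27 at 400 µM and 0 for the change. Between the species at 10 µM, libraries of equal number did not deviate together (correlations −0.0251, −0.00309 and −0.194). Between 10 and 400 µM in C. sinensis, equal numbers gave 0.463, 0.249 and 0.311, against −0.48 to 0.151 for unequal numbers. In C. grandis equal numbers gave −0.0736, −0.226 and 0.272, against −0.372 to 0.52. Whether C. sinensis libraries share something by number was not tested. The labels do not say that a number is shared, so the numbers were not treated as pairs.

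Among the 43 named sequences 8 values changed sign, none of them called. With total-count scaling these were scaffold_1_3278 (+0.22), ath-miR159a (+0.10), ath-miR396a-5p of scaffold_1_132 (+0.12), miR319 (+0.20) and ppt-miR319a (+0.076). With 1 library left out, scaffold_1_3278 ran from −0.30 to +0.28 (above 0 without C. grandis replicate 2 or C. sinensis replicate 3) and ptc-miR396f from −0.056 (without C. grandis replicate 3) to +0.32. Of the 8 calls under 1 on the log2 scale 1 held with each library left out in turn, against 15 of the 27 larger ones. The causes of these changes were not tested.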

Other observations

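The scatter between libraries was itself unequal. Among the 95 sequences with a mean of at least 100 CPM in both species, the coefficient of variation at 10 µM was larger in C. grandis in 65. Over these 95 its median was 21.9% in C. grandis and 15.3% in C. sinensis, and it passed 50% in 7 sequences in C. grandis and in 1 in C. sinensis. Of the sequences with a mean of at least 100 CPM in C. grandis, miR3951 and miR398 were among the 3 most variable there, each highest in replicate 3. By the same rule those of C. sinensis were miR319-5p, scaffold_1_3278 and miR5211, each highest in replicate 3 of that species. miR319-5p, the arm opposite the one that acts on TCP mRNAs, stood at 1773, 4271 and 2246 CPM in C. grandis and 1051, 790.1 and 2262 CPM in C. sinensis. miR5211 stood at 177, 464 and 207 CPM in C. grandis and 327, 325 and 687 CPM in C. sinensis. Neither was called (adjusted p = 0.259 and 0.321, edgeR).

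Other pairs of near-identical sequences with unequal values were ath-miR168b-3p and atr-miR8553b, 24-nt sequences 1 edit apart, at +0.49 and −0.34, with 3985 and 14097 CPM in C. grandis and 2829 and 17893 CPM in C. sinensis. Both had non-overlapping species, in opposite directions, and neither was called (adjusted p = 0.0975 and 0.233, edgeR). ath-miR168b-3p carries the name of the family that acts on Argonaute 1, yet it is 24 nt long and its close copy is named after a miRNA of another family.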
